A study of Homo sapiens with 6 samples.

Results

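Fibronectin and the matricellular proteins are secreted proteins that decide how a cell grips and senses the matrix around it. Fibronectin is assembled by integrins into fibrils that serve as a scaffold for adhesion and migration, whereas matricellular proteins such as thrombospondins, tenascin-C, osteopontin and SPARC add little strength to the matrix and instead tune adhesion, proteases and growth factors. In ovarian cancer, fibronectin-rich matrix is known for its part in the attachment of tumour cells to the peritoneum, and fibronectin is a common marker of the mesenchymal state that the miR-200 family of microRNAs opposes. The 10 genes described here, FN1, SPARC, THBS1, THBS2, TNC, POSTN, SPP1, SPOCK1, BGN and FSTL1, were taken by their names from a table of 58735 genes. Each name matched 1 row, and 7 of the 10 were expressed enough to be tested.

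PolyA RNA was sequenced from HEY cells, a long-established line from a human ovarian cancer. The labels give 3 libraries of cells that overexpress miR-200a and 3 of cells with the empty vector, all in RPMI-1640 medium with serum and all with batch number 1. Incubation times ran from 48 to 50 h in the miR-200a group and from 51 to 53 h in the vector group, so time and group cannot be told apart. The labelled hours rise by 1 from each library to the next, and whether they are the true times was not tested. The labels do not say which promoter drives the microRNA, whether the cells are a clone, or whether replicate libraries had cultures of their own. The p-values therefore reflect the spread among these libraries, which may be technical.

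Each library held 15849592 to 21003858 reads on genes, and intervals based on reads cover counting error only. The precursor gene MIR200A had 5, 4 and 11 reads in the miR-200a libraries and 0 in every vector library. Levels are given in FPKM, fragments per kilobase of gene scaled by 1 factor per library. ZEB2 is a mesenchymal repressor and known target of the family. It stood at 0.910 to 1.04 FPKM with miR-200a and at 1.61 to 2.10 with the vector (log2 difference -0.56, limma adjusted p = 0.112). It passed with voom on reads recovered from the FPKM values (log2 difference -0.97, voom adjusted p = 0.00444). Its relative ZEB1 stood at 23.4 to 28.5 against 27.3 to 29.4 FPKM (limma adjusted p = 0.464). Some libraries went against their grouping. Pairs of libraries were compared by a chi-square over genes, divided by its degrees of freedom. This was 2.08 for miR-200a 1 and 3, whereas miR-200a 2 lay closer to vector 2 (6.74) and vector 3 (7.95) than to its own group (19.6 and 21.9). Vector 2 and 3 were close (4.61) and vector 1 lay further from both (19.97 and 15.25). Vector 1 lay closer to miR-200a 1 (18.6) and miR-200a 3 (18.0) than to vector 2. In turn, miR-200a 1 and 3 each lay closer to vector 1 and vector 3 than to miR-200a 2. Fits without some of these libraries are therefore given for several of the genes below, though not for every gene.

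The cells carried part of an ovarian epithelial profile. The Mullerian transcription factor gene PAX8 reached 29.1 to 41.2 FPKM and the keratin genes KRT7, KRT8 and KRT18 reached 89.2 to 195 FPKM. WT1 stood at 0.700 to 1.26 FPKM and did not pass the filter, and MUC16, FOLR1 and CDH1 were at 0 reads in all libraries. The summed level of the 10 ovarian and epithelial markers was 393 to 491 FPKM in miR-200a cells and 343 to 380 FPKM in vector cells, so it moved with the groups, and its part in the results below was not tested. Of 10 fibroblast markers, FAP and ACTA2 passed the filter. COL1A1 stood at 0.733 to 1.43 FPKM without passing it, COL3A1 was at 0 in all libraries and DCN reached at most 0.0148 FPKM. The fibroblast sum was 11.1 to 11.4 against 10.4 to 11.3 FPKM. The 6 endothelial markers summed to 40.2 to 51.9 against 35.7 to 43.0 FPKM, almost all from CDH5, and the 4 mesothelial markers to 7.84 to 12.2 against 7.87 to 9.18 FPKM, mostly from MSLN. The 6 immune markers summed to at most 0.157 FPKM. In bulk samples, fewer cells of a type and less RNA per cell cannot be told apart.

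The sequences bear on which of these messages could be bound by the overexpressed microRNA. A microRNA recognises its targets mainly through the seed, bases 2 to 8, shown here in capitals (mature sequences from RefSeq, GRCh38.p14). miR-200a and miR-141 share 1 seed, and miR-200b, miR-200c and miR-429 share another.
hsa-miR-200a-3p: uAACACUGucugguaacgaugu
hsa-miR-141-3p: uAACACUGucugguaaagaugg
hsa-miR-200b-3p: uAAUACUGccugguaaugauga
hsa-miR-200c-3p: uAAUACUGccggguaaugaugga
hsa-miR-429: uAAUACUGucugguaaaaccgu

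For each gene the longest 3' UTR in the annotation was searched on its own strand for CAGTGTT, which pairs with the miR-200a seed. Of the 10 genes, THBS1 held 1 match and the other 9 held none. Among 10216 tested genes with an annotated 3' UTR, 22.2% held at least 1 match, and for 3' UTRs within 20% of the length of the member's the share ran from 6.37% (SPP1, 530 bases) to 48.1% (FSTL1, 4659 bases). CAGTATT, which pairs with the seed of miR-200b and miR-200c, was found in FN1, THBS1, TNC and FSTL1, and in 20.2% of the same 10216 genes. FN1, reported elsewhere as a target of miR-200c, held 2 such matches, where 11.8% of tested genes with a 3' UTR of like length held any. A match describes letters only and does not show binding. The matches of THBS1 and FN1 are shown from GENCODE transcripts on GRCh38, read 5′ to 3′ along the message, with the 7 bases that pair with the seed in capitals. They lie at chr15:39596971-39596992 (plus strand) for the miR-200a match of THBS1, and at chr2:215361303-215361324 and chr2:215361017-215361038 (minus strand) for the FN1 matches, all in the 3' UTR.
THBS1, miR-200a match: agtacctaaaaagtCAGTGTTg
FN1, first miR-200b/c match: tattcaataccgctCAGTATTt
FN1, second miR-200b/c match: ttatcaatttttccCAGTATTt

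The 10 genes spanned a wide range of levels in HEY cells. FN1 was the highest, at 220 to 323 FPKM over the 6 libraries, and ranked 98th of 12231 tested genes by mean level. SPARC followed at 82.3 to 96.6 FPKM, then TNC at 45.8 to 71.0 and FSTL1 at 49.4 to 61.4. SPOCK1 (5.69 to 9.79 FPKM), THBS1 (5.25 to 7.23) and SPP1 (1.47 to 2.65) came next. THBS2 stayed at 0.154 to 0.267 FPKM, BGN at 0 to 0.101, and POSTN was at 0 reads in all 6 libraries. SPARC lay above TNC in every library, whereas TNC and FSTL1 overlapped in both groups. SPOCK1 and THBS1 overlapped in the vector libraries, while SPOCK1 was above THBS1 in every miR-200a library. The deposited gene lengths count every annotated exon, which lowers genes with many isoforms most. With the longest coding transcript instead (8905 bases against 17315), FN1 averaged 596 FPKM in miR-200a cells and 468 in vector cells. The means of FSTL1 (74.7 and 87.6 FPKM) moved above those of TNC (67.1 and 77.2), by less than the SD of TNC (8.24 and 10.9). Gene totals do not show which fibronectin isoforms were made.

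**Figure D1:**
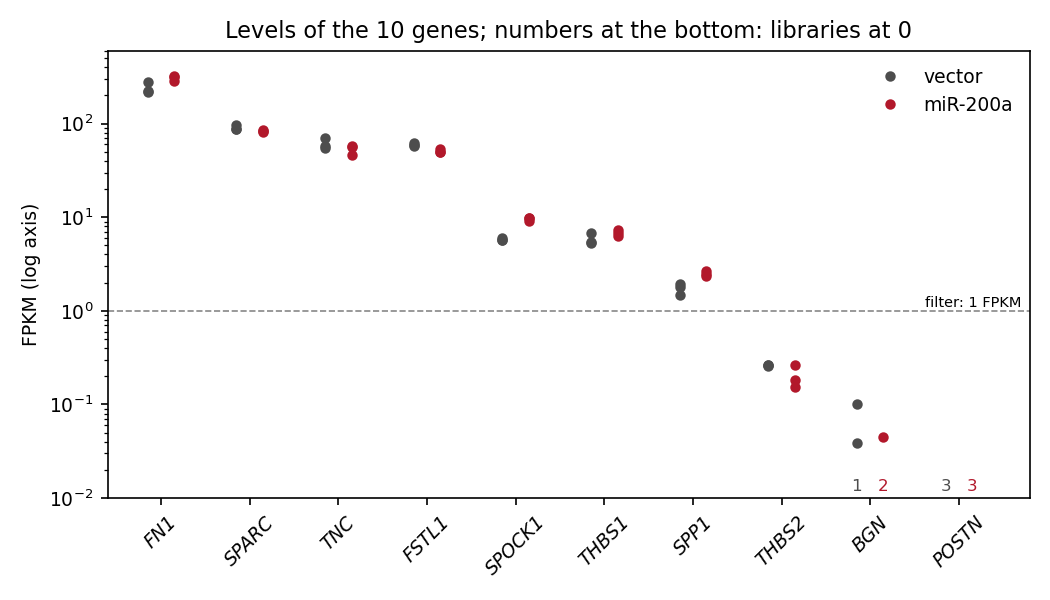
FPKM (log axis) of the 10 genes, ordered by mean level, with 1 point per library (grey, vector; red, miR-200a) and the number of libraries at 0 written at the bottom. FN1 lies at 220 to 323 FPKM, THBS2, BGN and POSTN lie below the filter of 1 FPKM (dashed), and POSTN is at 0 in all 6 libraries.

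SPOCK1 was the member that changed. It encodes testican-1, a secreted proteoglycan that carries the calcium-binding and follistatin-like modules of the SPARC family (ENSG00000152377, GRCh38 chr5:136975298-137598379, minus strand). Its level was 9.13, 9.77 and 9.79 FPKM in miR-200a libraries 1 to 3 and 5.69, 5.73 and 5.96 FPKM in vector libraries 1 to 3. All miR-200a libraries were above all vector libraries, with little spread inside either group. The means were 9.56 ± 0.377 and 5.79 ± 0.145 FPKM (SD, n = 3 each), 1.65-fold higher with miR-200a, and these levels rested on 600 to 1138 reads per library. The log2 difference was 0.64 (SE 0.066, 95% CI 0.48 to 0.79, limma adjusted p = 0.0196). The call held without miR-200a 2 (limma adjusted p = 0.033) but was lost without any other single library (limma adjusted p of 0.0793 to 0.116), although the log2 difference then stayed at 0.62 to 0.67. It was also lost with miR-200a 1 and 3 averaged as 1 sample (limma adjusted p = 0.118) and with both left out (limma adjusted p = 0.384), at log2 differences of 0.64 and 0.67.

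SPARC and FSTL1, the other members with a SPARC-type domain, were on average lower with miR-200a and did not pass the test. SPARC, or osteonectin, binds collagen and weakens cell adhesion (ENSG00000113140, chr5:151661096-151687165). It stood at 83.8, 82.3 and 84.5 FPKM in miR-200a libraries 1 to 3 and at 96.6, 88.5 and 87.1 FPKM in the vector libraries. The groups did not overlap, but the vector libraries alone spread more widely than the step between the groups. The log2 difference was -0.12 (SE 0.072, limma adjusted p = 0.486), and -0.07 without vector 1. FSTL1, a secreted glycoprotein that modulates BMP signalling (ENSG00000163430, chr3:120392293-120451253), stood at 50.1, 53.1 and 49.4 FPKM with miR-200a and at 61.4, 59.5 and 58.1 FPKM with the vector. Every miR-200a library was below every vector library, 1.17-fold on average. The log2 difference was -0.23 (SE 0.068, 95% CI -0.39 to -0.07, unadjusted p = 0.0125, limma adjusted p = 0.281). It was -0.26 without miR-200a 2 (limma adjusted p = 0.0694), in a fit that called 225 genes against 49 with all libraries. With miR-200a 1 and 3 both left out, the log2 difference of FSTL1 was -0.16. SPARC and SPOCK1 both lie on chromosome 5 and had differences of opposite sign.

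**Figure D2:**
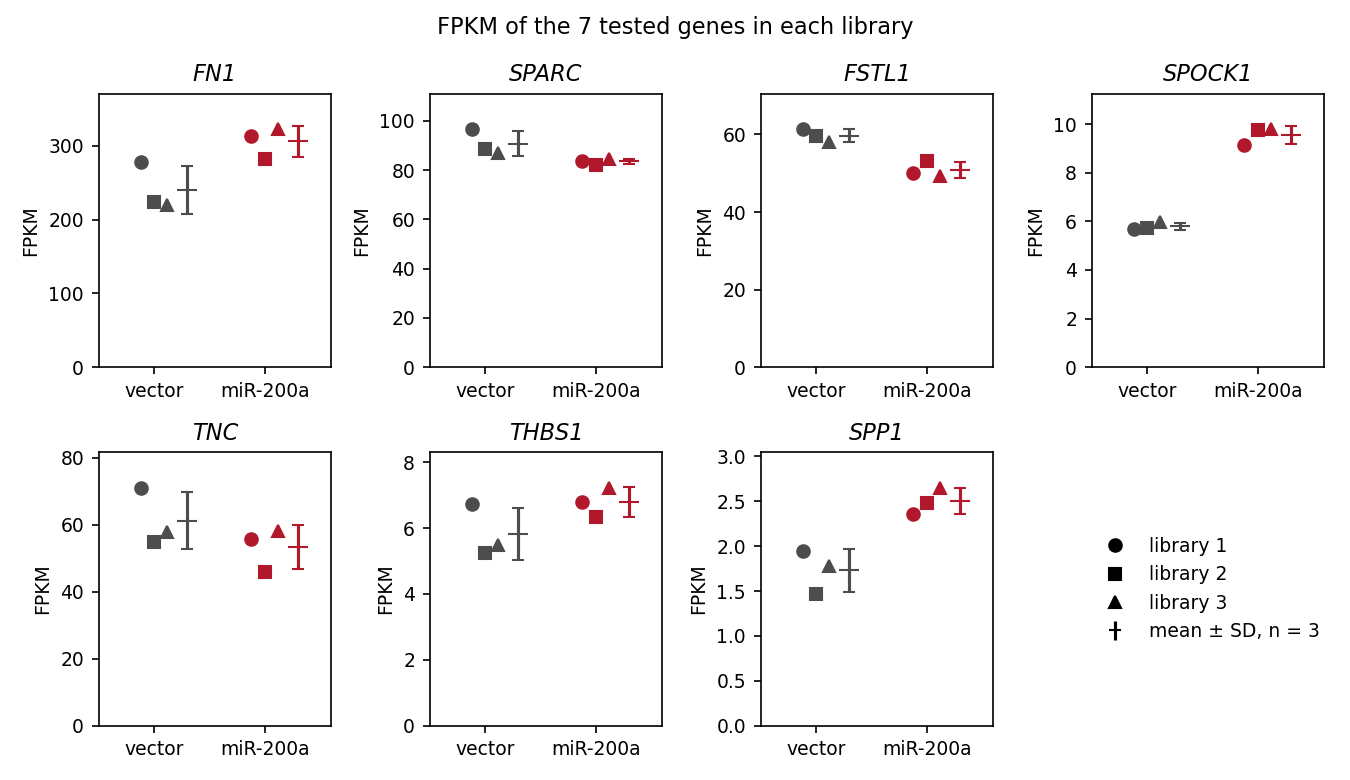
FPKM of the 7 tested genes in each vector (grey) and miR-200a (red) library, each axis starting at 0, with the mean ± SD (n = 3) beside the points and marker shapes for libraries 1 to 3. SPOCK1 separates the groups with little spread, at 9.13 to 9.79 against 5.69 to 5.96 FPKM. Vector library 1 is the highest vector library for each of the other tested genes.

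FN1, the gene of fibronectin, leaned higher with miR-200a without passing the test (ENSG00000115414, chr2:215360440-215436172). It stood at 314, 282 and 323 FPKM in miR-200a libraries 1 to 3 and at 278, 224 and 219.8 FPKM in vector libraries 1 to 3. The groups did not overlap, but miR-200a 2 and vector 1 nearly met. The means were 306 ± 21.1 and 241 ± 32.6 FPKM (SD, n = 3 each), 1.27-fold higher, with a log2 difference of 0.35 (SE 0.112, 95% CI 0.09 to 0.62, unadjusted p = 0.0159, limma adjusted p = 0.297). Counting error was small here, at 61577 to 104370 reads per library, so the spread lay between the libraries themselves. The difference was 0.46 without vector 1 (limma adjusted p = 0.168) and 0.41 without miR-200a 2 (limma adjusted p = 0.0889). The fit without miR-200a 2 called 225 genes, against 49 with all libraries. With miR-200a 1 and 3 both left out, the log2 difference of FN1 was 0.24. FN1 took 0.493 to 0.563% of all reads on genes with miR-200a and 0.382 to 0.483% with the vector.

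TNC, which encodes tenascin-C, a glycoprotein of wound and tumour matrix that counters adhesion to fibronectin, did not separate the groups (ENSG00000041982, chr9:115019578-115118257). Its level was 55.7, 45.8 and 58.1 FPKM in miR-200a libraries 1 to 3 and 71.0, 54.8 and 57.8 FPKM in vector libraries 1 to 3. The groups overlapped, vector 1 being high and miR-200a 2 low. The log2 difference was -0.20 (SE 0.13, 95% CI -0.50 to 0.11, limma adjusted p = 0.512), -0.09 without vector 1 or without miR-200a 2, and -0.40 with miR-200a 1 and 3 both left out.

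FN1 and TNC shared part of their library-to-library pattern, so their ratio within a library was computed after the values were seen. It is a description with no test. The pattern was not theirs alone, as vector 1 was also the highest vector library for SPARC, FSTL1, THBS1 and SPP1. There were 5.63, 6.17 and 5.55 FPKM of FN1 for each FPKM of TNC in the miR-200a libraries and 3.92, 4.08 and 3.8 in the vector libraries. FN1 made up 58.5 to 60.4% of the summed FPKM of the 10 genes with miR-200a and 50.4 to 53.3% with the vector. FN1 was the largest part of this sum and was higher in every miR-200a library, while SPARC and FSTL1 were lower. The share therefore adds little to the values of each gene. SPARC and SPOCK1 each separated the groups, in opposite directions, so their ratio had to separate too and adds nothing to the values of each gene. It lay at 8.42 to 9.18 with miR-200a and 14.6 to 17.0 with the vector.

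**Figure D3:**
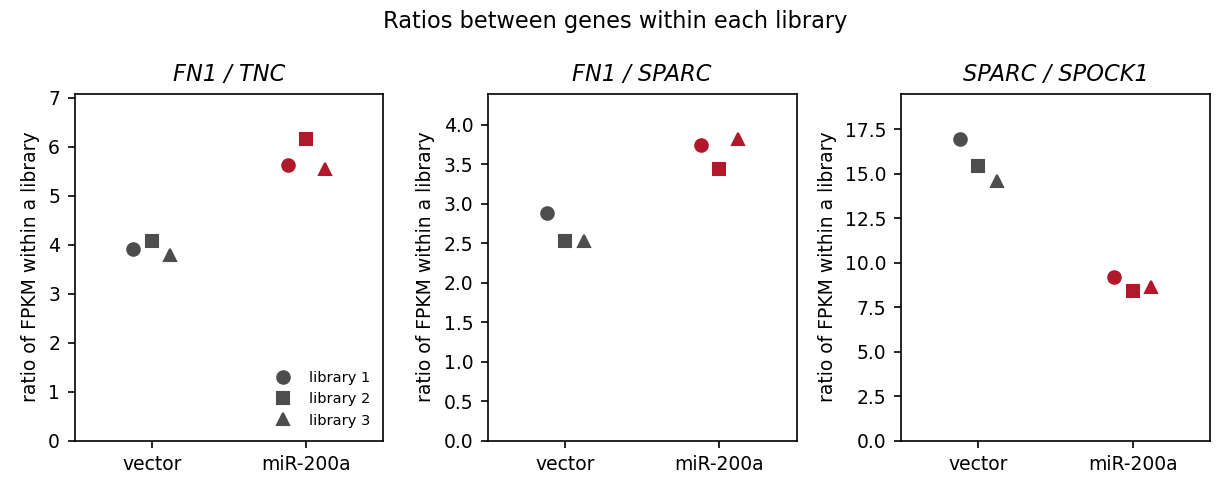
Ratios of FPKM between genes within each library (FN1 to TNC, FN1 to SPARC and SPARC to SPOCK1), for vector (grey) and miR-200a (red) libraries, each axis starting at 0. FN1 to TNC lies at 5.55 to 6.17 with miR-200a and 3.8 to 4.08 with the vector. FN1 and SPOCK1 were higher and SPARC lower in every miR-200a library, so the ratios with SPARC had to separate.

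The thrombospondins showed no difference that passed a test. THBS1, a large glycoprotein that can activate latent TGF-beta (ENSG00000137801, chr15:39581079-39599466), is the member with the miR-200a match shown above. It stood at 6.79, 6.32 and 7.23 FPKM in miR-200a libraries 1 to 3 and at 6.72, 5.25 and 5.48 FPKM in the vector libraries. The groups overlapped through vector 1, and the mean was higher with miR-200a. Whether miR-200a acts on the match was not tested. The log2 difference was 0.20 (95% CI -0.04 to 0.43, limma adjusted p = 0.432), and 0.29 without vector 1 (limma adjusted p = 0.315). THBS2, a related inhibitor of vessel growth (ENSG00000186340, chr6:169215780-169254044), was below the filter, with 18, 27 and 22 reads in the miR-200a libraries and 36, 30 and 27 in the vector libraries. Its level was 0.154, 0.264 and 0.184 FPKM against 0.267, 0.262 and 0.260, with miR-200a 2 inside the vector range (exact two-sided permutation p = 0.3, the smallest possible being 0.1). The miR-200a group held 67 reads in all (95% Poisson interval 51.9 to 85.1) and the vector group 93 (75.1 to 114), not scaled to library size.

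SPP1, BGN and POSTN were the low members. SPP1, the gene of osteopontin, a phosphoprotein that binds integrins and CD44 (ENSG00000118785, chr4:87975650-87983426), stood at 2.36, 2.48 and 2.65 FPKM in miR-200a libraries 1 to 3 and at 1.94, 1.47 and 1.78 FPKM in vector libraries 1 to 3. Every miR-200a library was above every vector library, 1.44-fold on average. The log2 difference was 0.36 on the log2(FPKM + 1) scale (SE 0.097, 95% CI 0.13 to 0.59, unadjusted p = 0.00745, limma adjusted p = 0.237), and 0.53 with voom on reads recovered from the FPKM values (voom adjusted p = 0.227). These levels rested on 61 to 115 reads per library. The log2 difference of SPP1 was 0.36 without miR-200a 2 (limma adjusted p = 0.0962), in a fit that called 225 genes against 49 with all libraries. With miR-200a 1 and 3 both left out it was 0.35. BGN, the gene of the small proteoglycan biglycan (ENSG00000182492, chrX:153494939-153509554), had 2, 0 and 0 reads in the miR-200a libraries and 2, 0 and 4 in the vector libraries (exact two-sided permutation p = 0.7). POSTN, the gene of periostin, a product of activated fibroblasts (ENSG00000133110, chr13:37562583-37598844), had 0 reads throughout, which allows a level of up to 0.0261 to 0.0344 FPKM per library at 3 reads.

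All 7 tested members were above 1 FPKM in all 6 libraries, and the 3 others were below it in all 6, so the filter did not depend on the group. Of the 7, 1 rose and 0 fell at a limma adjusted p under 0.05, where 0.286% of the 12231 tested genes rose and 0.114% fell (0.401% in either direction). With voom on recovered reads SPOCK1 was again the member that passed (log2 difference 0.72, voom adjusted p = 0.00336), where 0.932% of tested genes passed and 0.662% rose. Unadjusted p-values under 0.05 were found for 4 of the 7 and for 13.3% of all tested genes. The groups did not overlap for 5 of the 7, higher in FN1, SPOCK1 and SPP1 and lower in SPARC and FSTL1, against 8.29% higher and 10.7% lower among all tested genes. The median log2 difference of the 7 was 0.20, against -0.01 over all tested genes. The members had been chosen with results of these data known, so these counts carry no test.

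**Figure D4:**
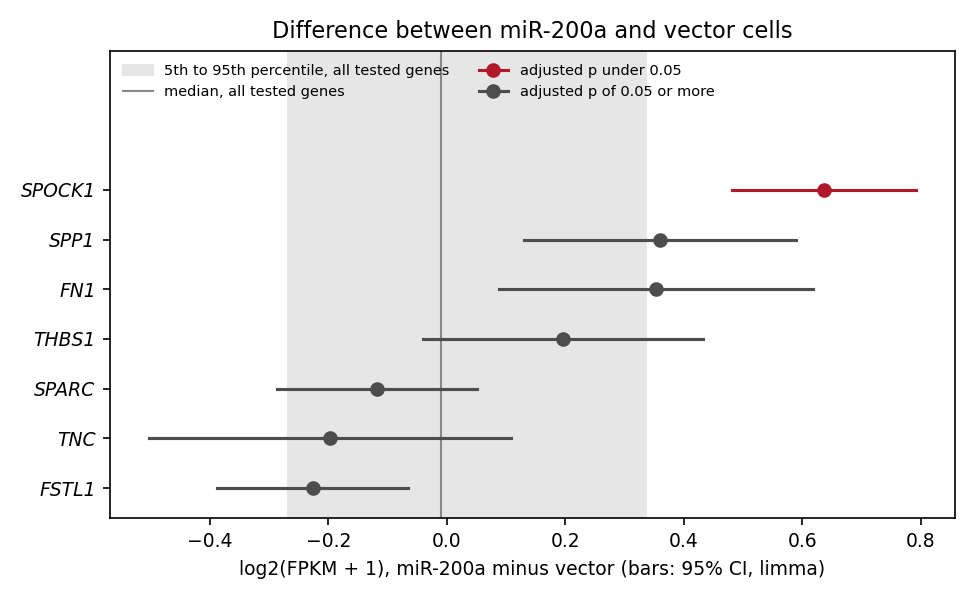
Difference in log2(FPKM + 1) between miR-200a and vector cells for the 7 tested genes (points, estimates; bars, 95% confidence intervals from limma), with the 5th to 95th percentile of all 12231 tested genes in grey. SPOCK1 (red, 0.64) lies beyond the grey band and is the member past the threshold. The band runs from -0.27 to 0.34, and the estimates of SPP1 (0.36) and FN1 (0.35) lie just above it.

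Related matricellular genes were examined next, from a list of 27 genes, 9 of them tested. None passed the test (limma), where 0.401% of all tested genes did. Without overlap, 5 of the 9 were higher and 2 lower, against 8.29% and 10.7% of all tested genes, and the median log2 difference was 0.12, against -0.01. CTGF, the CCN-family gene CCN2 that is induced by TGF-beta and YAP, stood at 417 to 421 FPKM with miR-200a and at 299 to 326 with the vector (limma adjusted p = 0.078, and 0.0277 with voom on recovered reads). NOV, or CCN3, went the other way, at 8.23 to 8.69 against 11.4 to 12.3 FPKM (limma adjusted p = 0.0655, and 0.0479 without miR-200a 2). The fit without miR-200a 2 called 225 genes, against 49 with all libraries. The log2 difference of NOV was -0.43 in both of these fits, and -0.42 with miR-200a 1 and 3 both left out. CYR61, or CCN1, stood at 471 to 514 against 451 to 469 FPKM (limma adjusted p = 0.491). SMOC1, another gene of the SPARC family, stood at 13.7 to 14 against 10.4 to 11.6 FPKM (limma adjusted p = 0.155). None of 10 other small leucine-rich proteoglycan genes, the family of biglycan, passed the filter. KERA, EPYC and PODN were at 0 reads in all libraries, and the highest value of the 10 in any library was 0.152 FPKM.

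Of 21 genes for receptors of these proteins, 13 were tested and 0 passed in either direction (limma). Of the 13, 4 were higher and 1 lower without overlap (8.29% and 10.7% of all tested genes), and the median log2 difference was 0.07. ITGB1, the beta subunit of the main fibronectin receptor, stood at 315 to 369 against 343 to 365 FPKM (limma adjusted p = 0.616). CD44, a receptor for osteopontin, stood at 96.9 to 101 against 100.2 to 115 FPKM (limma adjusted p = 0.586). ITGB3 was at 16.1 to 16.5 against 18.5 to 20.2 FPKM (limma adjusted p = 0.241), ITGB5 at 44.1 to 52.0 against 37.9 to 43.9 (limma adjusted p = 0.326), and the syndecan gene SDC1 at 44.2 to 56.2 against 37.6 to 44.0 (limma adjusted p = 0.30).

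Of 19 genes for fibronectin assembly and focal adhesions, 18 were tested and 0 passed (limma). Of the 18, 1 was higher and 2 were lower without overlap, near the 8.29% and 10.7% of all tested genes, and the median log2 difference was 0.11. TGM2, a transglutaminase that crosslinks fibronectin, stood at 249 to 352 against 201 to 251 FPKM (limma adjusted p = 0.292). FERMT2, the gene of the integrin activator kindlin-2, stood at 12.6 to 15.9 against 16.7 to 17.0 FPKM (log2 difference -0.28, limma adjusted p = 0.318). Without miR-200a 2 its log2 difference was -0.38 (limma adjusted p = 0.0441), in a fit that called 225 genes against 49 with all libraries. With miR-200a 1 and 3 both left out it was -0.08. The adhesion gene TNS1 stood at 6.71 to 8.89 against 5.78 to 7.24 FPKM and RHOA at 241 to 281 against 261 to 293 FPKM, with overlapping groups.

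Of 17 genes for enzymes that process matrix proteins, 15 were tested and 0 passed (limma). Of the 15, 2 were higher and 2 lower without overlap, near the 8.29% and 10.7% of all tested genes, and the median log2 difference was 0.15. MMP2, the gene of gelatinase A, stood at 5.79 to 7.62 against 2.71 to 3.89 FPKM (log2 difference 0.92, limma adjusted p = 0.0568). It passed without miR-200a 2 (limma adjusted p = 0.0438), in a fit that called 225 genes against 49 with all libraries. It also passed with voom on recovered reads (voom adjusted p = 0.00788). With miR-200a 1 and 3 both left out, the log2 difference of MMP2 was 0.73. The chondroitin synthesis gene CHPF stood at 10.7 to 17.8 against 8.17 to 10.01 FPKM (log2 difference 0.58, limma adjusted p = 0.281). Its log2 difference was 0.78 without miR-200a 2 (limma adjusted p = 0.0438) and 0.19 with miR-200a 1 and 3 both left out. ADAMTS1, a protease gene, stood at 20.1 to 21.0 against 24.0 to 26.2 FPKM (limma adjusted p = 0.209). The membrane protease gene MMP14 stood at 298 to 411 against 304 to 355 FPKM and the folding enzyme gene P4HB at 71.6 to 94.0 against 68.3 to 77.5 FPKM, with overlapping groups.

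Of 14 genes for TGF-beta ligands and effectors, a pathway known to induce FN1, TNC, SPARC and SPOCK1 in other settings, 12 were tested. SMAD3, which carries the signal to the nucleus, rose and 0 fell (limma), where 0.286% of all tested genes rose and 0.114% fell. Of the 12, 2 were higher and 0 lower without overlap (8.29% and 10.7% of all tested genes), and the median log2 difference was 0.13. SMAD3 (ENSG00000166949) stood at 26.6, 25.8 and 28.0 FPKM in miR-200a libraries 1 to 3 and at 18.7, 16.7 and 17.8 in the vector libraries. The miR-200a libraries were all higher (log2 difference 0.57, SE 0.074, limma adjusted p = 0.0345). The call held without miR-200a 2 and was lost without any other single library (limma adjusted p of 0.0796 to 0.189), although the log2 difference then stayed at 0.53 to 0.61. It was also lost without the filter (limma adjusted p = 0.0842), with miR-200a 1 and 3 averaged (limma adjusted p = 0.18) and with both left out (limma adjusted p = 0.644), at log2 differences of 0.57, 0.56 and 0.52. The ligand-binding gene LTBP1 stood at 3.12 to 3.27 against 2.40 to 2.94 FPKM (limma adjusted p = 0.35), LTBP2 at 12.1 to 15.8 against 10.3 to 12.2 (limma adjusted p = 0.325), and TGFBR1 at 6.27 to 7.22 against 7.22 to 8.25 (limma adjusted p = 0.36). The receptor gene TGFBR2 stood at 109 to 112 against 101 to 111 FPKM. The ligand gene TGFB1 stood at 33.3 to 49.7 against 33.6 to 43.6 FPKM, with overlapping groups.

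**Figure D5:**
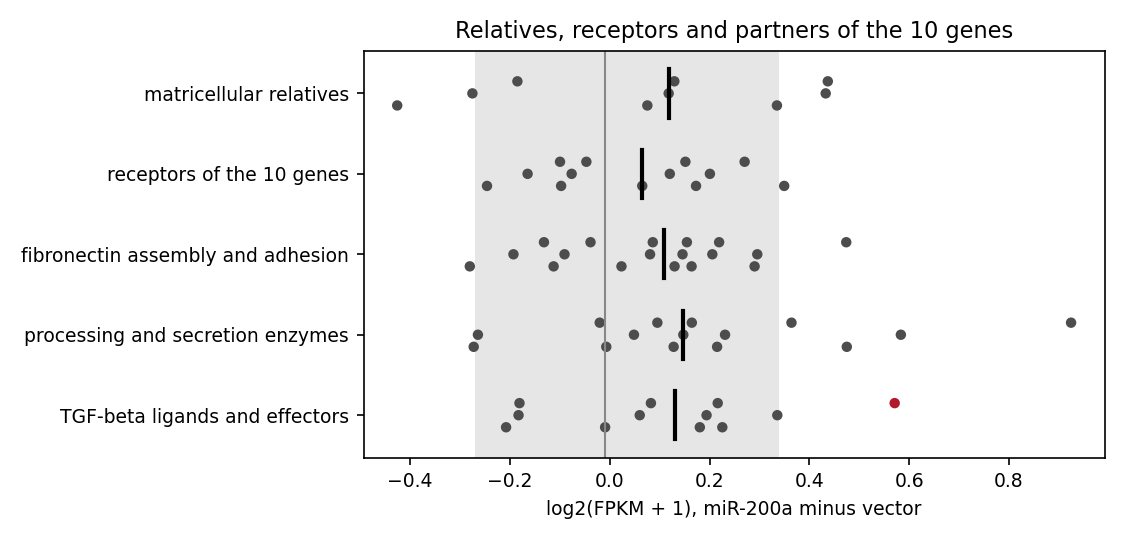
Difference in log2(FPKM + 1) between miR-200a and vector cells for the tested genes of 5 related lists (points), with the median of each list as a black bar and the 5th to 95th percentile of all tested genes in grey. SMAD3 (red, 0.57) is past the threshold, and the list medians lie between 0.07 and 0.15.

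The promoters of FN1 and SPP1, 2 members that stood higher without overlap, are shown because both lean the same way. The table of promoters held 9 of the 10 members, without SPOCK1. The 250 bases before each RefSeq start (GRCh38.p14) were searched for 4 motifs, none of which contains another. The E-box of ZEB factors, CACCTG on either strand, occurred in 17.5% of 35116 promoters. The AP-1 motif TGANTCA on either strand occurred in 6.57%. The cAMP response element TGACGTCA, which reads the same on both strands, occurred in 1.65%. The forward TATA box TATAAA occurred in 6.8%. FN1 held TGACGTCA, starting 183 bases before the start, and SPP1 held CAGGTG, the E-box on the other strand, starting 112 bases before it. Among the members not shown, THBS2 and POSTN each held TATAAA, and POSTN also held the AP-1 match TGAGTCA. Both are below the filter, so the matches were not limited to genes that stood higher. Matches are in capitals. The windows are chr2:215436069-215436318 (minus strand) and chr4:87975464-87975713 (plus strand), written along the gene. Both reach into the gene spans given above, which begin upstream of the RefSeq start.
FN1: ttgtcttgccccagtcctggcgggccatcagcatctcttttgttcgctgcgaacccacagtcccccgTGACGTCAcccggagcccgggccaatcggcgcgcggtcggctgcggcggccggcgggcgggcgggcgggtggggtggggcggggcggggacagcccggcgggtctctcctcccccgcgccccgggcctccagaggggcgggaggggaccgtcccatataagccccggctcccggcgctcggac
SPP1: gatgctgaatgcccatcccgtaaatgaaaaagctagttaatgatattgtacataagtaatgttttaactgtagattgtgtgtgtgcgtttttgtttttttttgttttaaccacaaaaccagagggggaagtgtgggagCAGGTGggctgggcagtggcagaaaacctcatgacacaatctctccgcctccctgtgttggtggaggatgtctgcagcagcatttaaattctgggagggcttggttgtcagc

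The sources used here do not say whether counting used strand, so reads of overlapping genes could be shared. Other annotated genes shared at most 7.89% of the exon bases of a tested member (CLMAT3 with SPARC, at 0.20 to 0.433 FPKM), and none of these genes exceeded 1.05 FPKM. FN1, SPOCK1 and SPP1 overlapped no other annotated gene.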

How the data were processed

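The authors deposited FPKM values, 1 per gene and library, for 58735 genes. No aligner, counting tool or strand setting is named in the sources used here. GRCm38 and mm10, both mouse builds, stand in the submitters' processing notes, but all 58735 starts, ends and lengths equalled those of human GENCODE 29 (GRCh38). Multiplying FPKM by the deposited length and 1 total per library gave whole reads, within 0.001 of a read, for 100% of nonzero values. Divided by a median-of-ratios size factor, from the 18607 genes above 0 in all libraries, these totals gave 1.78e+07 in every library. The deposited values were therefore scaled by such factors and not by total reads.

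The test was limma 3.58.1 with trend (R 4.3.3), run on log2(FPKM + 1) of the 12231 genes that reached 1 FPKM in 3 or more of the 6 libraries, with group as the only term, two-sided, with Benjamini-Hochberg adjustment over all of them at 0.05. This scale understates changes of low genes. Folds are ratios of mean FPKM. Members below the filter had an exact permutation test over the libraries (scipy 1.17.1). The test was tried on simulated data.

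Members, lists and ratios were chosen with earlier results of these data known. All 10 members were named. From each list the genes past the threshold, up to 3 with the smallest adjusted p and up to 2 of the highest level were named. From the marker lists, genes of high level and genes of low or no level were named without a fixed rule. A gene of the TGF-beta list is not reported here. For each tested member the gene of nearest profile was named. Alternatives were a pseudocount of 0.1, no filter, libraries left out or averaged, a replicate block, other scalings, voom on recovered reads and transcript length.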

Additional observations from a re-analysis of the deposited data

How the results depend on the processing

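The full comparison called 49 genes (35 higher, 14 lower) and 1 member. With 1 library left out, it called 8 to 225 genes, 4 to 160 of them higher and 2 to 65 lower, and 0 to 1 member. The highest counts came without miR-200a 2, and every other library left out gave at most 9 genes and 0 members. Without a filter it called 5 genes (4 higher, 1 lower) and 0 members, over more genes tested. Averaging miR-200a 1 and 3 gave 9 genes (6 higher, 3 lower) and 0 members, and leaving both out gave 2 genes (1 higher, 1 lower) and 0 members, with fewer samples and a lone miR-200a library whose spread was taken from the vector group. Voom on recovered reads called 114 genes (81 higher, 33 lower) and 1 member. The cause of this rise was not tested.

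SPOCK1 kept its direction in all 14 alternative fits, at log2 differences of 0.62 to 0.72, and its call in 6, namely the pseudocount of 0.1, both scalings, the replicate block, voom and without miR-200a 2. Its adjusted p was 0.0581 without the filter. The 6 other tested members kept their direction and stayed uncalled in all 14. Scaling by total reads or upper quartile moved the median of all genes to -3.34e-05 and -0.00782, from -0.00902. With miR-200a 1 and 3 left out, small uncalled differences changed sign for ITGB1 (0.0497), RHOA (0.027), ZEB1 (0.0161), MMP14 (-0.16), P4HB (-0.00528) and TGFB1 (-0.17).

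With the replicate block, 69 genes were called (48 higher, 21 lower), and SPOCK1 remained the called member (adjusted p = 0.0314). Deviations of same-numbered libraries correlated at 0.143, 0.366 and -0.006 for numbers 1 to 3, so not every pair was related and the numbers were not taken to pair the samples. Not every library correlated best with its own number. MMP2 passed with the block (adjusted p = 0.0232). The chi-square of 2.08 for miR-200a 1 and 3 exceeded sampling noise, so both were kept. THBS2, BGN and POSTN are limited by depth.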

Other observations

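For each tested member, the gene was sought whose level, centred on its own mean in log2(FPKM + 1), followed it most closely over the 6 libraries. Likeness was the root-mean-square difference between the profiles, among 12231 genes, and it is a description. FN1, whose own profile deviated by 0.216 from its mean, was nearest to the urokinase gene PLAU (0.0291), then to ZNF764 (0.0364) and the actin scaffold gene AFAP1 (0.0418). ZNF764 was low, at 0.845 to 1.81 FPKM, and its likeness to FN1 depends on the scale. At a pseudocount of 0.1 the log2 difference was 0.58 for ZNF764 and 0.35 for FN1. PLAU stood at 347, 319 and 367 FPKM in miR-200a libraries 1 to 3 and at 298, 246 and 241 FPKM in vector libraries 1 to 3, so it shared the lower miR-200a 2 and the higher vector 1 with FN1.

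SPOCK1 was nearest to DKK1, a secreted Wnt antagonist (0.0425), which stood at 31.3, 35.5 and 32.5 FPKM against 19.9, 20.3 and 21.7. THBS1 was nearest to the focal adhesion gene VCL (0.0199), at 40.5, 38 and 42.9 FPKM against 38.9, 32.8 and 33.4, with the groups overlapping through vector 1 in both genes. The nearest genes were APP for SPARC (0.013), STT3A for FSTL1 (0.0122), BCL6 for TNC (0.0321) and UBL7 for SPP1 (0.029). The likeness of UBL7 to SPP1 depends on the scale too, with log2 differences of 0.36 and 0.51 at a pseudocount of 0.1. Of the nearest genes, DKK1 passed the test over all genes (limma adjusted p = 0.026). It was chosen for its likeness to SPOCK1, so a test result like that of SPOCK1 follows from the choice. The call of DKK1 held without miR-200a 2 and was lost without any other single library. The log2 difference then stayed at 0.63 to 0.69 (0.66 with all libraries), although the call did not. It was also lost without the filter (limma adjusted p = 0.0771), with miR-200a 1 and 3 averaged (limma adjusted p = 0.133) and with both left out (limma adjusted p = 0.376).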
